A study of Mus musculus with 2 samples.

Results

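Here the miR-23, miR-27 and miR-24 miRs of the paralogous miR-23a/27a/24-2 and miR-23b/27b/24-1 clusters were examined in mouse sperm. An entry of the deposited tables was taken as a member when its name, without species prefix, arm and copy number, was miR-23a, miR-23b, miR-27a, miR-27b or miR-24, which gave 11 of 1886 entries. Sperm was collected from the epididymis of naive WT C57BL/6J mice with an age of 3 months in the sample labels. The labels give no transgene, allele or agent, and all samples belong to 1 condition. Small RNA was sequenced in 2 libraries described as independent biological replicates, and the number of mice behind each is not given in the sources used here.

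The hairpins of a cluster are cut from a common primary transcript, and each hairpin gives a 5p and a 3p mature arm. The miR-23, miR-27 and miR-24 families are conserved among vertebrates and are known from endothelial cells, muscle, fat and blood cells. miR-27 is a known regulator of fat cell differentiation and lipid metabolism, miR-23 of blood vessel growth and miR-24 of cell-cycle and DNA repair genes. A miR recognizes its targets mainly through bases 2 to 8 from its 5′ end, the seed.

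The mature sequences are shown because the comparison of the paralogs rests on how far they can be told apart by a read. They were taken from RefSeq (GRCm38.p6), which held 10 of the 11 members, all but miR-23b-3p, and are written 5′ to 3′ with the seed in capitals.
miR-23a-3p: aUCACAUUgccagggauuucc
miR-27a-3p: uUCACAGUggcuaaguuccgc
miR-27b-3p: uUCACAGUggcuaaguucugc
miR-24-3p: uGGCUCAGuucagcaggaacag
miR-23a-5p: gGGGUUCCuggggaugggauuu
miR-23b-5p: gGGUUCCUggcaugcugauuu
miR-27a-5p: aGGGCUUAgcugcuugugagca
miR-27b-5p: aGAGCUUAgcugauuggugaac
miR-24-2-5p: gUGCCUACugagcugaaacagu
miR-24-1-5p: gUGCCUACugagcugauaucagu
miR-27a-3p and miR-27b-3p share the seed UCACAGU and their first 18 bases, and differ by C19U, counted from the 5′ end with the miR-27a base first. The seed of miR-23a-3p is UCACAUU, which shares its first 5 bases with the seed of miR-27. The 5p arms of the miR-24 copies share the seed UGCCUAC and their first 16 bases and then diverge. The 5p arms of miR-27a and miR-27b differ in 8 of 22 bases and have different seeds. miR-24-3p is 1 sequence that arises from both loci, so its reads could not be assigned to a cluster. Among the 1608 of 1886 entries with a sequence in RefSeq, 4 entries outside the clusters shared the seed of miR-24-3p, namely miR-5124b, miR-6369, miR-6410 and miR-6413. None of them had a read in either library.

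In GRCm38 the a cluster spans 404 bases of the plus strand of chromosome 8, at chr8:84208518-84208921. Mir23a (ENSMUSG00000065611.1), Mir27a (ENSMUSG00000065444.1) and Mir24-2 (ENSMUSG00000065541.1) follow each other with 79 and 56 bases between them. No protein-coding gene of GENCODE overlaps them, and the nearest is Zswim4 at a distance of 1756 bases on the other strand. Mir24-2 also overlaps the start of the lincRNA Gm26532. The b cluster spans 792 bases of the plus strand of chromosome 13, at chr13:63300484-63301275. Mir23b (ENSMUSG00000065599.2), Mir27b (ENSMUSG00000065475.2) and Mir24-1 (ENSMUSG00000105904.1) are separated by 154 and 423 bases. All of them lie inside the protein-coding gene 2010111I01Rik, known as Aopep in RefSeq, on the same strand, and antisense to an intron of Fancc. Counted over the transcripts of 2010111I01Rik, Mir23b overlaps no exon, Mir27b overlaps 1 exon and Mir24-1 overlaps 4 exons. The miR-27 and miR-24 hairpins are shown with their mature arms in capitals, since the reads of these arms differed most between the loci.
Mir27a (chr8:84208672-84208758, plus strand): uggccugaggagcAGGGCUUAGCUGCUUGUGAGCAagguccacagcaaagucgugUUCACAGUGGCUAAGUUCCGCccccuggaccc
Mir27b (chr13:63300712-63300784, plus strand): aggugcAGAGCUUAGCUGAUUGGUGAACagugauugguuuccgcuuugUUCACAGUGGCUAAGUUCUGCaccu
Mir24-2 (chr8:84208815-84208921, plus strand): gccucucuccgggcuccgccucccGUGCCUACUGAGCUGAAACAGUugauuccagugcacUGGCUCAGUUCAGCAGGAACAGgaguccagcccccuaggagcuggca
Mir24-1 (chr13:63301208-63301275, plus strand): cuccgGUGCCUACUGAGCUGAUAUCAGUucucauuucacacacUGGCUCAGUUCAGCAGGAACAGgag

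**Figure D1:**
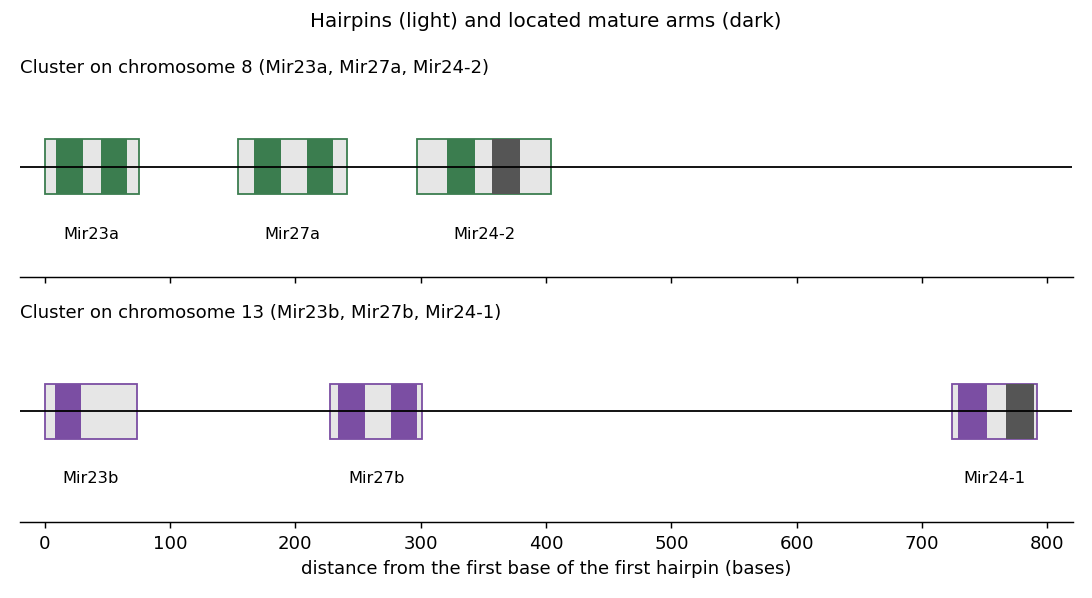
Hairpins of both clusters (light boxes) and the mature arms located on them (dark boxes), drawn to scale by distance in bases from the first base of the first hairpin. The grey arm is miR-24-3p, which both loci share, the 3p arm of Mir23b is not drawn, and the b cluster spans 792 bases against 404 bases of the a cluster.

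Replicate 1 contained 4049599 reads on miRs and replicate 2 contained 5648067. Levels are given as CPM, the reads of an entry per 1000000 miR reads of its library, and 3 reads, taken as the smallest amount the depth can show, corresponded to 0.741 CPM in replicate 1 and 0.531 CPM in replicate 2. Wilson 95% intervals cover counting error only, since PCR copies were not told apart. The libraries were dominated by miR-10b-5p and miR-10a-5p, with 54.7% and 24.4% of the miR reads on average, so small changes of these entries shift the CPM of all others. Of 13 miR names listed as male germ cell markers, 6 had an entry read in both libraries, chiefly miR-34c. Their summed share was 0.396% in replicate 1 and 0.166% in replicate 2. Shares of marker lists for other cells were larger for smooth muscle and stroma (4.13% and 6.26%, mostly miR-143-3p), epithelium (1.08% and 0.886%, mostly miR-141-3p) and, in replicate 2, blood (0.333% and 0.722%, mostly miR-486). Without the most abundant entry of each list, male germ cells had 0.0977% and 0.0347%, and epithelium 0.245% and 0.178%. Smooth muscle and stroma then had 0.0483% and 0.0685%, and blood 0.0223% and 0.0333%. Epithelium thus stayed above the germ cell list in both libraries, smooth muscle and stroma in replicate 2 only, and blood in neither. For endothelium, where these clusters are well known, the list held miR-126a alone, which took 0.00803% and 0.00825%, and the markers of skeletal muscle took 0.00222% and 0.00239%. The sperm pellet had been treated with a hypotonic buffer with detergents to disrupt cells other than sperm before RNA isolation. The part of other cells in the member reads was not tested, and in bulk RNA fewer cells of a type and less RNA per cell cannot be told apart.

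The members together took 0.368% of the miR reads in replicate 1 (14892 reads) and 0.291% in replicate 2 (16456 reads), or 3295 ± 540.1 CPM (SD, n = 2 libraries). Most of this was miR-27b-3p. Of the 11 members, 9 had at least 1 read in each library, against 20% of all 1886 entries. With at least 10 reads in each library 7 members remained, against 12.9% of all entries, and with at least 100 reads 6 members, against 6.52%. The 2 members without a read in either library were the 5p arms of miR-23a and miR-23b, and 70.9% of all entries had no read.

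miR-27b-3p, the 3p arm of the Mir27b hairpin in the b cluster, was counted 13071 times in replicate 1 and 14257 times in replicate 2. This was 3228 CPM (Wilson 95% interval 3173 to 3283) and 2524 CPM (2483 to 2566), a mean of 2876 ± 497.5 CPM (SD, n = 2). It ranked 17th of all entries in each library and 18th by mean CPM among the 378 entries read in both. miR-27b-3p exceeded all other members together 7.18-fold in replicate 1 (6.83 to 7.54) and 6.48-fold in replicate 2 (6.20 to 6.78). The next member was miR-24-3p, shared by both loci, with 604 and 768 reads, or 149 and 136 CPM. Its rank by mean CPM among the entries read in both libraries was 65. miR-27b-3p was 21.6-fold (19.9 to 23.5) and 18.6-fold (17.3 to 19.96) above it, so the lead of miR-27b-3p was far larger than the difference between the replicates.

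Below these lay the other 3p arms, between 61.4 and 102 CPM. miR-27a-3p, with the same seed as miR-27b-3p, had 413 and 572 reads, or 102 and 101 CPM, a mean of 102 ± 0.503 CPM (SD, n = 2). This closeness of the replicates held for CPM only, as the log2 ratio of replicate 2 to replicate 1 was -0.01 in CPM, 0.34 with TMM scaling and 0.33 with DESeq2 size factors. miR-23a-3p had 381 and 353 reads, or 94.1 and 62.5 CPM. miR-23b-3p had 293 and 347 reads, or 72.4 and 61.4 CPM. In both libraries the order was miR-24-3p, miR-27a-3p, miR-23a-3p and miR-23b-3p. miR-24-3p exceeded miR-27a-3p 1.46-fold (1.29 to 1.66) in replicate 1 and 1.34-fold (1.20 to 1.5) in replicate 2. The step from miR-27a-3p to miR-23a-3p was 1.08-fold (0.943 to 1.25) in replicate 1 and 1.62-fold (1.42 to 1.85) in replicate 2, so these neighbours were not separated beyond their spread, and neither were miR-23a-3p and miR-23b-3p.

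The 5p arms were lower. miR-24-2-5p, the 5p arm of the a cluster copy of miR-24, led them with 104 and 131 reads, or 25.7 and 23.2 CPM. miR-27b-5p had 19 and 20 reads, or 4.69 CPM (3.00 to 7.33) and 3.54 CPM (2.29 to 5.47). miR-27a-5p had 4 and 5 reads, or 0.988 CPM (0.384 to 2.54) and 0.885 CPM (0.378 to 2.07). miR-24-1-5p, from the b cluster, had 3 reads in each library, which is the smallest amount counted as visible here. The last 2 entries overlapped in their intervals and were not separated. For miR-23a-5p and miR-23b-5p, with 0 reads, the limit of 3 reads is 0.741 CPM in replicate 1 and 0.531 CPM in replicate 2, and the upper Wilson bound is 0.949 and 0.680 CPM.

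**Figure D2:**
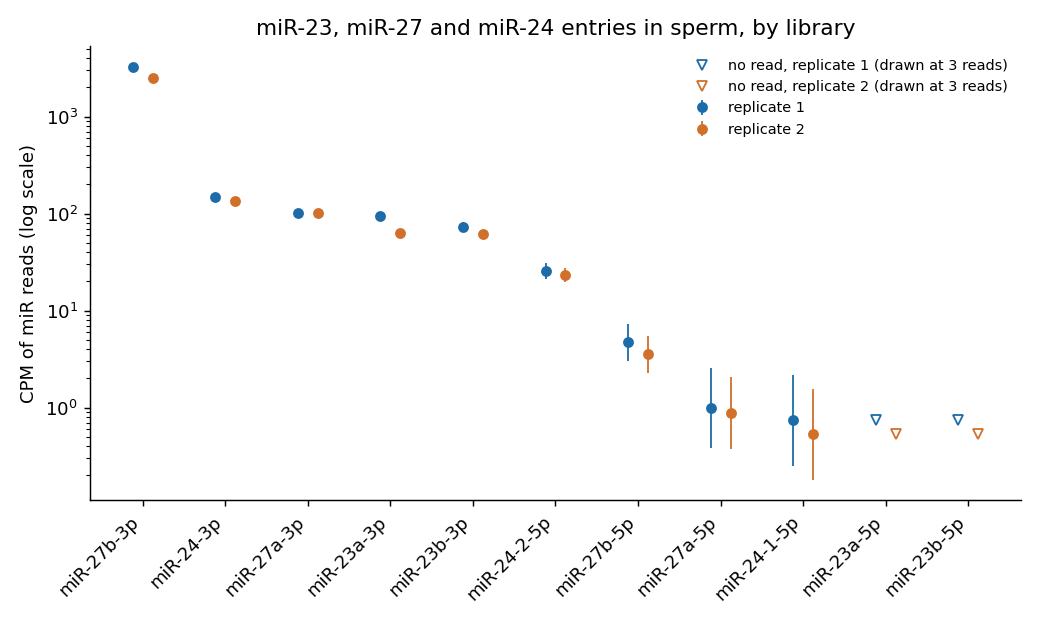
CPM (log scale) of the 11 members in replicate 1 and replicate 2, with Wilson 95% intervals for counting error. Open triangles stand at 3 reads for entries without a read, and miR-27b-3p lies above all other members in both libraries, at 3228 and 2524 CPM.

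The a and b paralogs were compared within each library, where the ratio of 2 counts does not depend on the scaling. The outcome differed between the hairpins of the same clusters: miR-27 reads came mostly from the b cluster, reads of the miR-24 5p arms mostly from the a cluster, and miR-23 reads from both, without a separation beyond their spread. With 1 condition and 2 libraries no p-value was computed, and each ratio is set beside its change between the libraries.

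For miR-27-3p, the b paralog exceeded the a paralog 31.6-fold in replicate 1 (Wilson 95% interval 28.7 to 34.9) and 24.9-fold in replicate 2 (22.9 to 27.1), a log2 ratio of 4.81 ± 0.24 (SD, n = 2). The b paralog thus made up 96.9% and 96.1% of the miR-27-3p reads. The 5p arms of miR-27, whose sequences differ at many more positions, went the same way with few reads, 4.75-fold (1.69 to 13.3) and 4-fold (1.56 to 10.3) higher for miR-27b-5p. Their intervals lay wholly below those of the 3p arms in both libraries, so the excess of b was smaller on the 5p arms. For the 5p arms of miR-24 the direction was opposite. The a cluster copy miR-24-2-5p exceeded miR-24-1-5p 34.7-fold (11.6 to 103) in replicate 1 and 43.7-fold (14.7 to 130) in replicate 2, a log2 ratio of b over a of -5.28 ± 0.24 (SD, n = 2). As the lower entry had 3 reads in each library, the size of this fold is known only within these wide intervals. For miR-23-3p the b paralog made up 43.5% of the reads in replicate 1 (39.8% to 47.2%) and 49.6% in replicate 2 (45.9% to 53.3%). The log2 ratio of b over a was -0.20 ± 0.25 (SD, n = 2), smaller than its change of 0.35 between the libraries, so miR-23a-3p and miR-23b-3p were not separated by these data.

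**Figure D3:**
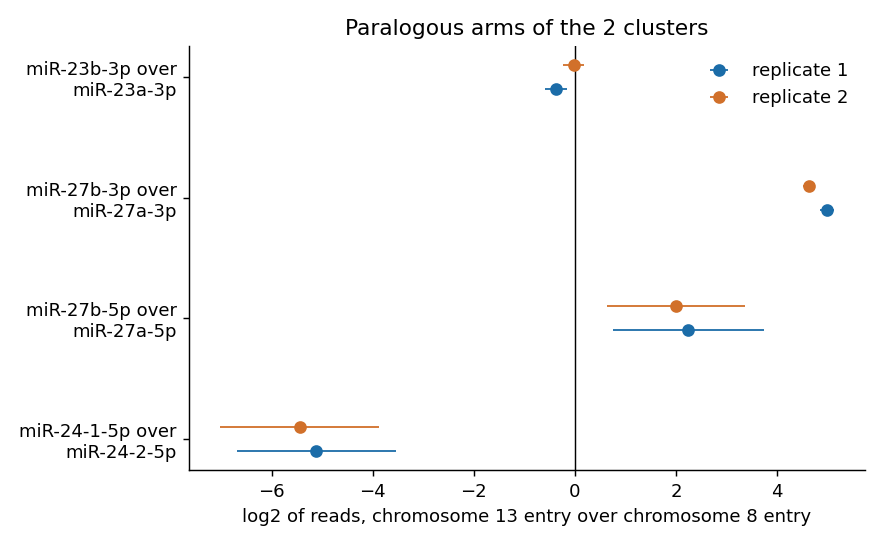
Log2 ratio of the reads of the chromosome 13 (b) entry over the chromosome 8 (a) entry in each library, with intervals for counting error. The miR-27 arms lie to the right of 0, at means of 4.81 for 3p and 2.12 for 5p, the miR-24 5p arms to the left at -5.28, and miR-23-3p near 0 at -0.20.

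Hairpins of the same cluster were not counted equally. Within the b cluster, miR-27b-3p exceeded miR-23b-3p 44.6-fold in replicate 1 (39.7 to 50.1) and 41.1-fold in replicate 2 (36.9 to 45.7). Within the a cluster, miR-27a-3p exceeded miR-23a-3p only 1.08-fold and 1.62-fold. miR-23a-3p was counted 3.66-fold (2.95 to 4.55) and 2.69-fold (2.21 to 3.29) more often than miR-24-2-5p of the same cluster. miR-23b-3p was counted 97.7-fold (33.0 to 289) and 116-fold (39.2 to 342) more often than miR-24-1-5p of the b cluster. These ratios to miR-24 set a 3p arm against a 5p arm. The 3p arm held 85.0% and 85.1% of the miR-24 reads and could not be assigned to a cluster. Whole miR-23 and miR-24 hairpins of a cluster could therefore not be compared. Summed over all arms except the shared miR-24-3p, the b cluster had 3306 CPM in replicate 1 and 2590 CPM in replicate 2, against 223 and 188 CPM of the a cluster. This order rested on miR-27b-3p alone. Without it, the b cluster held 77.8 and 65.5 CPM and lay below the a cluster in both libraries, with a log2 ratio of b over a of -1.52 in place of 3.84. With the 3p arms of miR-27 left out of both clusters, the a cluster held 121 and 86.6 CPM and the log2 ratio was -0.52. The miR-24-3p reads, 149 and 136 CPM, stayed out of these sums and could come from either locus. They exceeded the b cluster sum without miR-27b-3p, so the order of the clusters with miR-24-3p included is not known for these 2 settings. By family, miR-27 took 90.5% ± 0.307 of the member reads, miR-24 5.13% ± 0.5 and miR-23 4.39% ± 0.192 (SD, n = 2 libraries each).

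The reads do not show which molecules shorter than 19 bases came from miR-27a or miR-27b, since both sequences are the same up to that base, and the authors kept reads from 15 bases on. The same holds for reads of up to 16 bases on the miR-24 5p arms. For miR-23a-3p and miR-23b-3p this was not checked, as no sequence of miR-23b-3p was at hand. Their near-equal counts may therefore carry the same limit. The tables list 0 reads as ambiguous and 0 as aligned to several places, and how such short reads were counted is not given in the sources used here. The ratios above are therefore those of the deposited counts.

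To place these ratios, all pairs of an a and a b entry of the same miR number and arm with at least 10 reads each were listed, a comparison chosen after the member values were seen. The table held 29 such pairs, miR-23-3p and miR-27-3p included. Of these, 48.3% differed over 4-fold in the same direction in both libraries, as miR-27-3p did and miR-23-3p did not. The median difference was 4.90-fold. miR-27-3p ranked 8th by size of the log2 ratio, behind pairs such as miR-148-3p and miR-26-5p in which the a entry was higher. The b entry was higher on average in 10 of the 29 pairs, and among these 10 the ratio of miR-27-3p was the largest, followed by miR-99-5p with a log2 ratio of 3.17. miR-23-3p ranked 28th of 29, with only miR-465-5p closer to equality.

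**Figure D4:**
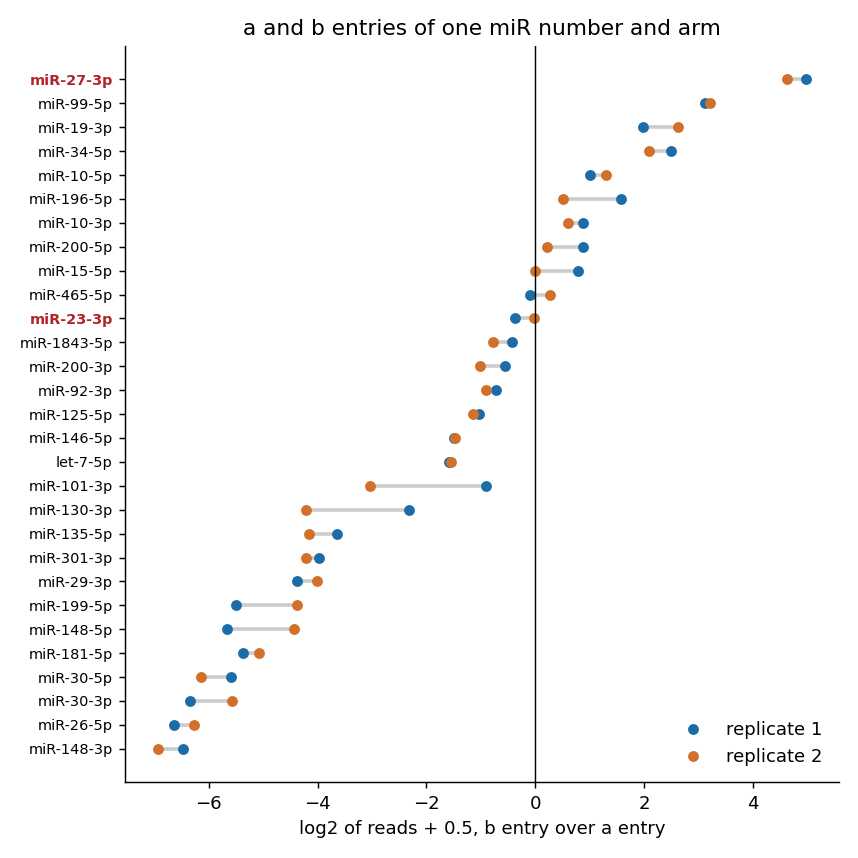
Log2 ratio of (reads + 0.5) of the b entry over the a entry for the 29 pairs with at least 10 reads each, with 1 point per library joined by a line. miR-27-3p, in red, stands at the top with the largest ratio in favour of b, and miR-23-3p, also in red, lies close to 0.

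For each of the 5 member names the 3p arm had more reads than the 5p arm in both libraries. Across 214 miR names with entries for both arms and at least 10 reads, 42.5% had more 3p reads in both libraries and 53.3% more 5p reads. The direction of the members is thus a common one, though the less frequent of the 2. miR-27b had 99.9% of its reads on the 3p arm in both replicates, with 688 and 713 3p reads per 5p read. miR-27a had 99.0% (97.6% to 99.6%) and 99.1% (98.0% to 99.6%). For miR-23a, whose 5p arm had no read, the 3p arm was 127-fold above the floor of 3 reads in replicate 1 and 118-fold in replicate 2. For miR-23b, also without a 5p read, it was 97.7-fold and 116-fold above that floor. The lower Wilson bounds of the 3p share were 99.0% and 98.9% for miR-23a, and 98.7% and 98.9% for miR-23b, which allow somewhat smaller folds. miR-24 stood apart with 85.0% (82.1% to 87.4%) and 85.1% (82.7% to 87.3%) on the 3p arm, the 5p arms of both copies summed, so a larger share of its reads lay on the 5p arm than in the other member names. The median share of the more abundant arm over the 214 names was 99.4%, and 68.7% of the names had at least 95% of their reads on that arm. miR-24 was below this level and the other 4 member names were above it. By first base, the 3p arms with a sequence start with U (miR-27a, miR-27b, miR-24) or A (miR-23a), and the 5p arms start with G or A, while 40.2% of the entries with a sequence start with U.

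Between the replicates the members moved little. Of the 7 members that reached 10 reads over both libraries, 0 changed over 2-fold, against 8.67% of 323 entries that were over 2-fold higher in replicate 2 and 22.0% that were over 2-fold lower. These shares were not matched for read number. Of the 7 members, 6 had at least 100 reads in each library, while the 323 entries include all from 10 reads on. Whether the members were steadier than entries of like read number was not tested. In CPM, the log2 ratios of replicate 2 to replicate 1 of these members ran from -0.59 for miR-23a-3p to -0.01 for miR-27a-3p, with a median of -0.24. The median of all 323 entries was -0.29, so the members moved in the direction of the bulk of the table. How close the 2 medians lay depended on the read minimum. With at least 100 reads over both libraries they were -0.19 for the members and -0.35 for all entries. With at least 1 read they were -0.24 and -0.46. With TMM scaling and the minimum of 10 reads, the median of all entries was 0.06. The member median was then 0.11, with a range from -0.24 to 0.34. miR-27b-3p had a log2 ratio of -0.35, which was -0.0041 with TMM scaling. Over the same libraries the summed germ cell markers changed by -1.25 on the log2 scale, the epithelial markers by -0.29, miR-126a of endothelium by 0.04, the skeletal muscle markers by 0.10, the smooth muscle and stroma markers by 0.60 and the blood markers by 1.12. The change of the blood markers was 0.58 without the joined miR-486 entry, and that of the germ cell markers was -1.49 without miR-34c-5p. Without miR-143-3p the smooth muscle and stroma markers changed by 0.50, and without miR-141-3p the epithelial markers by -0.46. The skeletal muscle markers, with only 90 and 135 reads, changed by -0.22 without miR-133a-3p, so their sign depended on that entry. The part of these cells in the member levels was not tested. These are differences between 2 libraries of the same condition.

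**Figure D5:**
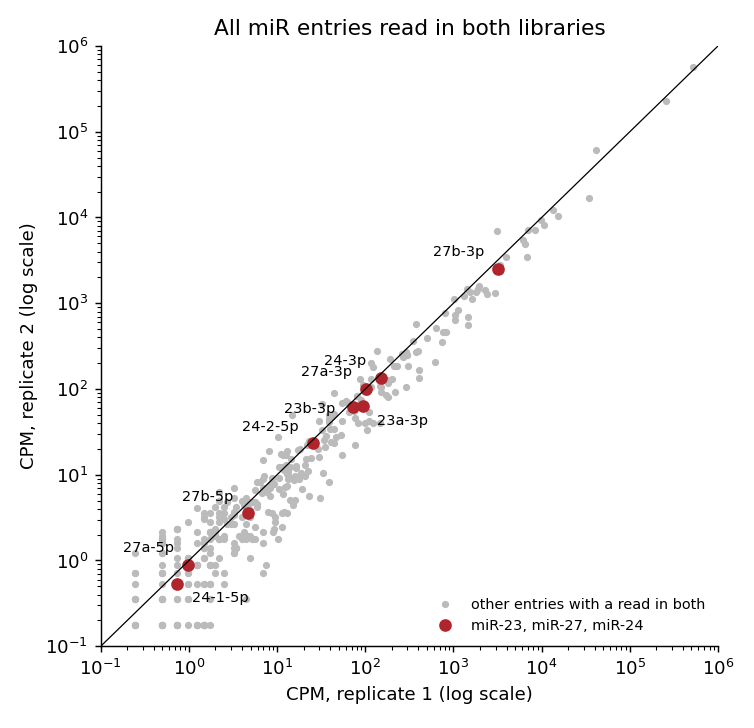
CPM in replicate 2 against replicate 1 (log scales) for the 378 entries with a read in both libraries, with the 9 members among them in red and the line of equal CPM. The members lie on or just below the line, within the cloud of the other entries.

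The entries outside the clusters with the most similar levels were named by their distance over log2 CPM in the 2 libraries. For miR-27b-3p these were let-7a-5p (3358 and 2405 CPM, distance 0.09), miR-181a-5p (distance 0.16) and miR-125a-5p (distance 0.54). Nearest to miR-24-3p were miR-103-3p (147 and 136 CPM, distance 0.02), miR-30c-5p (0.12) and miR-96-5p (0.31), and nearest to miR-23a-3p were miR-19b-3p (88.9 and 68.2 CPM, distance 0.15), miR-411-5p (0.18) and miR-30e-3p (0.25). With 2 libraries, such a likeness is one of level only.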

How the data were processed

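Small RNA from 2 sperm libraries was analysed. According to the methods and the submitters' processing notes, the authors trimmed low-quality ends (Phred), removed adapters with cutadapt 1.8.1, dropped short reads and mapped with Bowtie 1.1.2, first to a miR and piRNA reference without mismatches. HTSeq, mm10 and GRCm38 are also named. Reads with sequencing errors or added bases are lost in a mapping without mismatches, and ligation and PCR preferences of the library kit can change levels between miRs. The authors deposited raw read counts per mature miR, not normalized and not pooled. The deposited names carry the string POSTTREAT, which the labels, that call the mice naive, do not explain. Summary entries were left out, the reads assigned to no miR being 38.1% and 26.3% of all reads listed.

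CPM, SD over 2 libraries, Wilson intervals and log2 ratios (pseudocount 0.5 reads between libraries) were computed in Python (3.11.15; scipy 1.17.1, pandas 2.3.3, numpy 2.4.6), plotted with matplotlib 3.10.9 and checked on simulated data. TMM factors came from edgeR 4.0.16 and size factors from DESeq2 1.42.0 (R 4.3.3). No test between conditions was possible. Named were all members, entries sharing a member's seed, the 3 entries nearest in level to the top member of each family, and the 2 most abundant entries. Members, marker lists and comparisons were chosen with earlier results of these data known.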

Additional observations from a re-analysis of the deposited data

Results flagged for a closer look

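Reads antisense to the miR-24 hairpins were present in entries outside the clusters. Mir3074-1 overlaps Mir24-1 and Mir3074-2 overlaps Mir24-2, each on the minus strand. miR-3074-5p had 4 reads in replicate 1 and 2 reads in replicate 2, and miR-3074-1-3p had 0 and 5 reads, while miR-3074-2-3p had no read. The first 2 entries exceeded 3 reads in 1 library each, the smallest amount taken as visible. These counts were as low as those of miR-24-1-5p, with 3 reads in each library. No control samples were analysed here, and no explanation was tested.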

How the results depend on the processing

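No paired analysis was possible because there was 1 group. The summed abundance of the members was 3295 CPM, 2211 CPM of all reads listed and 15773 CPM of the miR reads without the 2 most abundant entries, which only change the denominator. The median log2 ratio between the libraries, -0.24, was 0.11 with TMM, 0.11 with DESeq2 size factors and -0.072 without the 2 most abundant entries, so its sign depends on the scaling. The log2 ratio of the b over the a cluster, 3.84, was -1.52 without miR-27b-3p and -0.52 without miR-27a-3p and miR-27b-3p, both chosen after seeing the data. The shared miR-24-3p was left out of all these ratios. Of 104 alternative values, 86 stayed within the spread between replicates, within 1.5 times for counts, within the binomial interval for the share of hairpins with a higher 3p arm, or within 0.1 log2 for the ratio between libraries. Each library alone left the detected members at 9, the log2 ratio of miR-27-3p between 4.64 and 4.98 and that of miR-23-3p between -0.38 and -0.02. With 2 libraries, either one is less than 1 SD from the mean of both by construction. The single-library values judged by this spread are counted among the 86 and could not have moved. The same holds for the values of the miR-23 5p arms, which had no read, and for the miR-23 ratio with both arms summed. The TMM and DESeq2 sizes were scaled to the geometric mean of the miR totals. Mean CPM over both libraries could therefore change little under them, and only that of miR-27a-3p, with an SD of 0.503, moved. Depth limits the members under 10 reads, miR-27a-5p and miR-24-1-5p, and the 5p arms of miR-23.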
